A study of Mus musculus with 12 samples.

Results

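Lymphatic endothelial nuclei are the nuclei of the cells that line lymph vessels, and 342 of them were found among 47319 nuclei from the lungs of 12 mice. A nucleus was taken as lymphatic when it held at least 3 unique molecular identifiers (UMIs, 1 per captured RNA molecule) over at least 2 of the 5 genes Mmrn1, Prox1, Reln, Flt4 and Ccl21a. It also had to hold more UMIs of these 5 genes than of 11 genes of other cells (Kit, Glp1r, Ednrb, Edil3, Slc6a2, Gja5, Itga8, Scube2, Rtkn2, Wt1 and Upk3b). Only nuclei with 200 to 6000 genes and at most 5% mitochondrial UMIs were considered. The 5 markers chose the nuclei, so their levels are given as a description. They stayed in the fit across all genes, but no test of them is read as a result.

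The mice were C57BL/6J and 7 weeks old when bleomycin, which damages alveoli and is followed by scarring, or PBS was instilled into the airway. NVP-BHG712, a small molecule inhibitor of the receptor tyrosine kinase EphB4, or its vehicle was given by mouth from day 5 in 5 daily doses, and lungs were taken on day 14. The 4 groups, PBS_vehicle, PBS_NVP, Bleo_vehicle and Bleo_NVP, held 3 mice each, with 1 library of sorted nuclei from perfused, frozen lung per mouse. The labels give run 4 for the whole of Bleo_NVP, runs 1 to 3 for PBS mice and batches 6, 6 and 7 for Bleo_vehicle. Whenever a bleomycin group is compared, its batch therefore cannot be told apart from its treatment.

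Lymphatic endothelium arises where the transcription factor Prox1 is switched on in venous endothelium and depends on the receptor VEGFR3, encoded by Flt4, and its ligand VEGF-C. Lymph vessels return fluid and immune cells from tissue to blood, and their endothelium secretes the chemokine Ccl21a, which draws dendritic cells and T cells, and the matrix glycoproteins Reln and Mmrn1. EphB4 and its ligand ephrin-B2 are needed for lymphatic valves.

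The 342 nuclei were spread unevenly over the libraries. PBS_vehicle held 23, 17 and 9 of them, PBS_NVP 86, 22 and 4, Bleo_vehicle 28, 39 and 96, and Bleo_NVP 2, 11 and 5, in the order of replicates 1 to 3. Each nucleus held 508 to 20055 UMIs (median 2437.5), and the summed lymphatic UMIs of a library ranged from 3564 to 409091. At the lowest of these sums a single UMI is worth 281 CPM, that is UMIs of a gene per 1000000 summed UMIs, so values from Bleo_NVP replicate 1 and PBS_NVP replicate 3 (6019 UMIs) are coarse. These libraries, with 2 and 4 lymphatic nuclei, were left out of the tests across genes. Bleo_NVP replicates 2 and 3 (13734 and 7986 UMIs), which were tested, are coarse too. A single nucleus held 33.5% and 38.2% of the lymphatic UMIs of PBS_vehicle replicates 2 and 3, and 37.2% of those of Bleo_NVP replicate 3. In the other tested libraries it held at most 21.5%. No barcode was taken as a lymphatic nucleus in more than 1 library, although a few barcodes of lymphatic nuclei also occurred among passing nuclei of another library.

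Within the 342 nuclei the 5 markers were not all seen in every nucleus. Reln was detected in 311, Mmrn1 in 291, Flt4 in 262, Prox1 in 234 and Ccl21a in 173 nuclei. All 5 markers were detected in 94 nuclei, 4 in 116, 3 in 73 and only 2 in 59. Nuclei with 2 markers held a median of 1196 UMIs and nuclei with 5 markers 3949 UMIs, so the number of markers seen moved with depth. Ccl21a was the most unequal of the markers, with 1 UMI in the median nucleus and up to 40 in a single nucleus, and the 10 nuclei with most of it held 30.4% of its UMIs. Ccl21a (chromosome 4, 42772860 to 42773993, minus strand; positions here and below are on GRCm38) has near-identical copies in the genome (Ccl21b is 99.5% identical over the shorter transcript). The 4 copies examined held 0, 0, 0 and 1 UMIs in lymphatic nuclei, and how reads that match more than 1 of these genes were counted was not tested, so its count is uncertain.

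The label was checked on 16 lymphatic identity genes that the rule did not use. At least 1 UMI of them was present in 339 of the 342 nuclei. The 46977 other nuclei held 106689 UMIs of these genes, and the share of them with at least 1 is not given. The presence of 1 UMI therefore does not by itself set lymphatic nuclei apart. The summed level of the 16 genes was 5208 CPM over all lymphatic UMIs. In the other nuclei of the 12 libraries this sum ranged from 555 to 654 CPM. Nrp2, the VEGF-C co-receptor, averaged 1286 CPM in lymphatic nuclei, 49.8 in general capillary nuclei, 362 in venous nuclei and 128 in all other nuclei, each averaged over the 12 libraries. The transcription factor Maf averaged 675 CPM against 73.4 in all other nuclei, and Sned1, a matrix protein, 910.2 against 104. The membrane protein Pdpn, also made by alveolar type I cells, averaged 204 against 83.0, and the hyaluronan receptor Lyve1 139 against 17.1, although Lyve1 was also found at 183 CPM in venous nuclei. Nts and Foxc2 were nearly absent, with 5 and 6 UMIs in all.

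Genes outside the rule with the largest ratio of level to that of all other nuclei were Sh3gl3 (331-fold), Klhl4 (298-fold), Apba2 (252-fold) and Stab2 (196-fold). Sh3gl3 (chromosome 7, 82173840 to 82307419, plus strand) encodes an endophilin of membrane traffic and Stab2 (chromosome 10, 86841198 to 87008025, minus strand) a scavenger receptor for hyaluronan. Sh3gl3 was detected in 42.1% of lymphatic nuclei and 0.226% of the others, and Apba2, an adaptor protein, in 61.1% and 0.762%. Next came the long noncoding RNA D5Ertd615e (154-fold), Pld5 (146-fold), Sncaip (76.5-fold), the noncoding A830019P07Rik (74.3-fold) and Pcsk6, a proprotein convertase (62.7-fold). Emid1 (50.4-fold), Slc45a3 (47.3-fold), the guidance ligand Sema3d (44.4-fold), Sgsm1 (42.5-fold) and F8, coagulation factor VIII (36.6-fold), followed. These ratios describe the nuclei that the rule chose and carry no test. They weight all 12 libraries equally, and the Pcsk6 mean of 763 CPM was 577 without Bleo_NVP replicate 1.

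Nuclei that only just met the rule were concentrated in Bleo_vehicle replicates 1 and 2. Of the 49 nuclei with 3 or 4 marker UMIs, 15 came from replicate 1, where they were 15 of 28, 14 came from replicate 2, where they were 14 of 39, and at most 5 came from any other library. Their identity genes outside the rule summed to 2321 CPM, above the other nuclei and below the lymphatic nuclei as a whole. Just outside the rule lay 33 nuclei with 2 UMIs over 2 markers, 30 with enough UMIs of 1 marker and 43 with as many UMIs of the 11 other genes or more. Shares, summed identity genes and counts of called genes are therefore given also for a stricter rule of 5 UMIs over 3 markers, which kept 268 nuclei. Counts of genes called between Bleo_vehicle and PBS_vehicle are given also without Bleo_vehicle replicates 1 and 2.

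Bleo_vehicle libraries also stood apart in mitochondrial RNA, and replicates 2 and 3 in the share of nuclei with markers of other cells. The 13 mitochondrially encoded genes summed to 8580 to 22937 CPM in lymphatic nuclei of Bleo_vehicle and to 0 to 4660 CPM in the other 9 libraries, and in all other nuclei of the same libraries to 6167 to 14139 and 473 to 789 CPM. Markers of a non-endothelial class (at least 3 UMIs over at least 2 markers) were present in 148 of the 342 lymphatic nuclei, 108 of them among the 163 of Bleo_vehicle. Alveolar type II markers were the most common, in 113 nuclei, 88 of them in Bleo_vehicle. The share in Bleo_vehicle was 32.1%, 56.4% and 80.2% of lymphatic nuclei, and in general capillary nuclei of the same libraries it was 36.4%, 51.4% and 74.1%. In PBS_vehicle it was 39.1%, 11.8% and 11.1% of lymphatic nuclei against 36.5%, 9.31% and 6.00% of general capillary nuclei. The lymphatic nuclei of PBS_vehicle replicate 1 were the deepest (median 4749 UMIs), and the part of depth in these shares was not tested. Lymphatic and general capillary nuclei thus carried such markers at like shares within a library, and the shares differed between libraries. The part of these markers in the results below was measured only by leaving out the 148 nuclei.

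**Figure D1:**
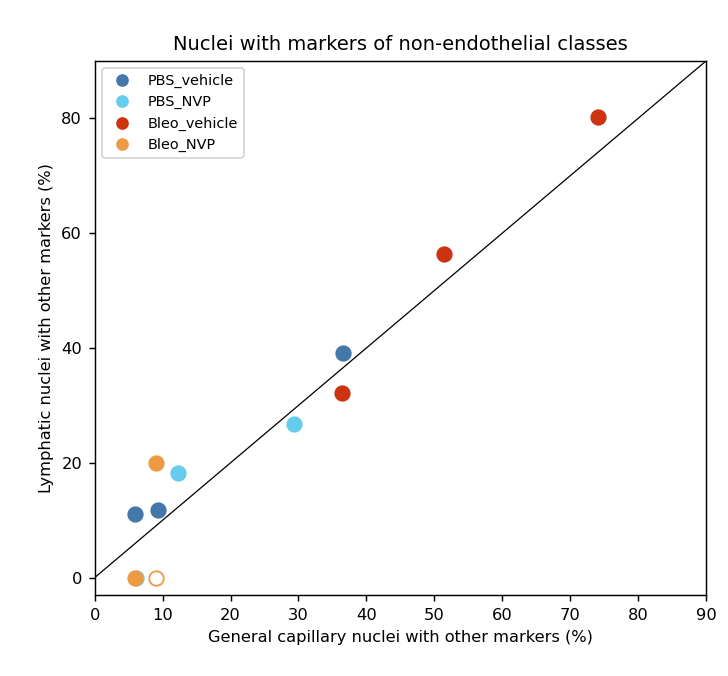
Percent of lymphatic nuclei (vertical axis) and of general capillary nuclei (horizontal axis) that hold at least 3 UMIs over at least 2 markers of a non-endothelial class, with 1 point per library coloured by group, the line marking equal shares and open points marking libraries under 5 lymphatic nuclei. Points lie near the line, with Bleo_vehicle at 32.1%, 56.4% and 80.2% of lymphatic nuclei, and the open points and the filled Bleo_NVP point at 0% partly cover each other.

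The first comparison asked whether lymphatic nuclei became more or less frequent after injury or under the inhibitor. Lymphatic nuclei made up 0.610%, 0.686% and 0.614% of passing nuclei in PBS_vehicle and 0.999%, 1.04% and 0.228% in PBS_NVP. In Bleo_vehicle they made up 1.23%, 0.585% and 0.723%, and in Bleo_NVP 0.170%, 0.518% and 0.310%. The widest 95% exact binomial intervals, which cover counting error only, were those of Bleo_vehicle replicate 1 (0.820% to 1.77%) and PBS_NVP replicate 2 (0.656% to 1.58%). Every Bleo_NVP library lay below every Bleo_vehicle library, while in the 3 other pairs of groups compared the libraries overlapped.

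The group means were 0.637% ± 0.0429 (SD, n = 3) for PBS_vehicle, 0.757% ± 0.459 for PBS_NVP, 0.846% ± 0.340 for Bleo_vehicle and 0.333% ± 0.175 for Bleo_NVP. Bleo_NVP was 0.514 percentage points below Bleo_vehicle (difference -0.514), with an exact two-sided permutation p of 0.1, the smallest that 3 against 3 libraries allow, and 0.6 after Benjamini-Hochberg adjustment over 6 comparisons. Under the stricter rule the difference was -0.226 points and the libraries overlapped (exact permutation p = 0.2). Bleo_vehicle differed from PBS_vehicle by 0.210 points (exact permutation p = 0.4, adjusted 0.6), a difference that changed sign under the stricter rule (-0.0320 points). PBS_NVP differed from PBS_vehicle by 0.120 points (exact permutation p = 0.8), and the 6 bleomycin libraries differed from the 6 PBS libraries by -0.107 points (exact permutation p = 0.593). None of these differences passed the threshold after adjustment, which 3 against 3 libraries could not do at any size of difference. In Bleo_vehicle replicate 3, which held few nuclei near the limit of the rule, the share of 0.723% was also above every Bleo_NVP library. In a share of nuclei fewer lymphatic nuclei and more nuclei of other types cannot be told apart.

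**Figure D2:**
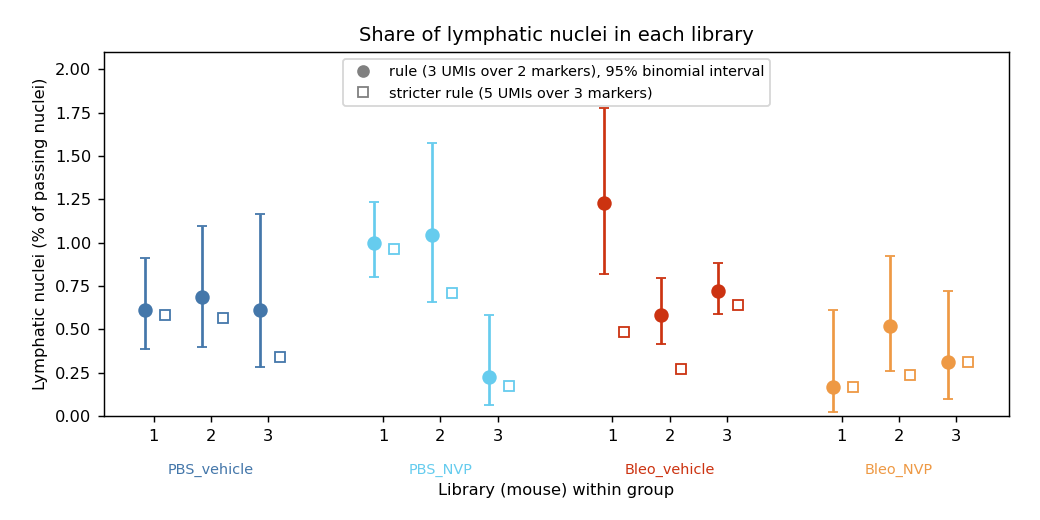
Lymphatic nuclei as percent of passing nuclei in each library, by group, under the rule (circles, with 95% exact binomial intervals) and under the stricter rule (open squares). Bleo_NVP lies at 0.170% to 0.518% and Bleo_vehicle at 0.585% to 1.23%, and under the stricter rule the 2 groups overlap.

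As a share of endothelial nuclei (lymphatic nuclei and those with at least 2 UMIs over at least 2 of 8 pan-endothelial genes, 16486 in all), lymphatic nuclei averaged 1.96% ± 0.551 for PBS_vehicle, 2.26% ± 1.35 for PBS_NVP, 3.18% ± 2.28 for Bleo_vehicle and 1.26% ± 0.428 for Bleo_NVP (SD, n = 3 each). Bleo_NVP lay below Bleo_vehicle without overlap (difference -1.92 points, exact permutation p = 0.1, adjusted 0.6), and under the stricter rule by -0.654 points with overlap (exact permutation p = 0.2). Bleo_vehicle replicate 1 stood at 5.81%, with 28 lymphatic among 482 endothelial nuclei. Its general capillary nuclei numbered 22, against 255 and 1460 in the other Bleo_vehicle libraries.

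For 3 of the 5 rule markers, Mmrn1, Reln and Ccl21a, every Bleo_vehicle library lay below every PBS_vehicle library, as was so for 15% of the 2261 genes tested below. Since the rule used these genes, nothing is read from that count. Mmrn1 stood at 1713, 1901 and 1257 CPM in PBS_vehicle, 1586, 2162 and 1495 in PBS_NVP, 651, 667 and 1124 in Bleo_vehicle, with 1403, 1456 and 2379 in Bleo_NVP. Reln stood at 3004, 3587 and 3404 CPM in PBS_vehicle and at 1626, 1638 and 2178 in Bleo_vehicle. Prox1 stood at 845, 1039 and 733 CPM in PBS_vehicle and at 286, 363 and 785 in Bleo_vehicle. For Prox1 replicate 3 of Bleo_vehicle lay within the range of PBS_vehicle. Ccl21a stood at 1117, 353 and 419 CPM in PBS_vehicle, 588, 425 and 166 in PBS_NVP, 143, 93.6 and 159 in Bleo_vehicle, with 281, 146 and 501 in Bleo_NVP. Flt4 overlapped, at 769.8, 999.7 and 471 CPM in PBS_vehicle and 533, 632 and 565 in Bleo_vehicle.

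Identity genes that the rule did not use were lower on average in the same group, and none of them passed the test. Their 16 genes summed to 5814 to 7527 CPM in PBS_vehicle, 6564 to 7310.2 in PBS_NVP, 4508 to 6990 in Bleo_NVP and 2602 to 4395 in Bleo_vehicle, so that Bleo_vehicle did not overlap any other group. Without the nuclei that carried markers of another class the sum in Bleo_vehicle was 4408 to 6773 CPM and overlapped PBS_vehicle at 6614 to 7442. Under the stricter rule it was 3229 to 4401 against 5627 to 7479 and did not overlap.

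**Figure D3:**
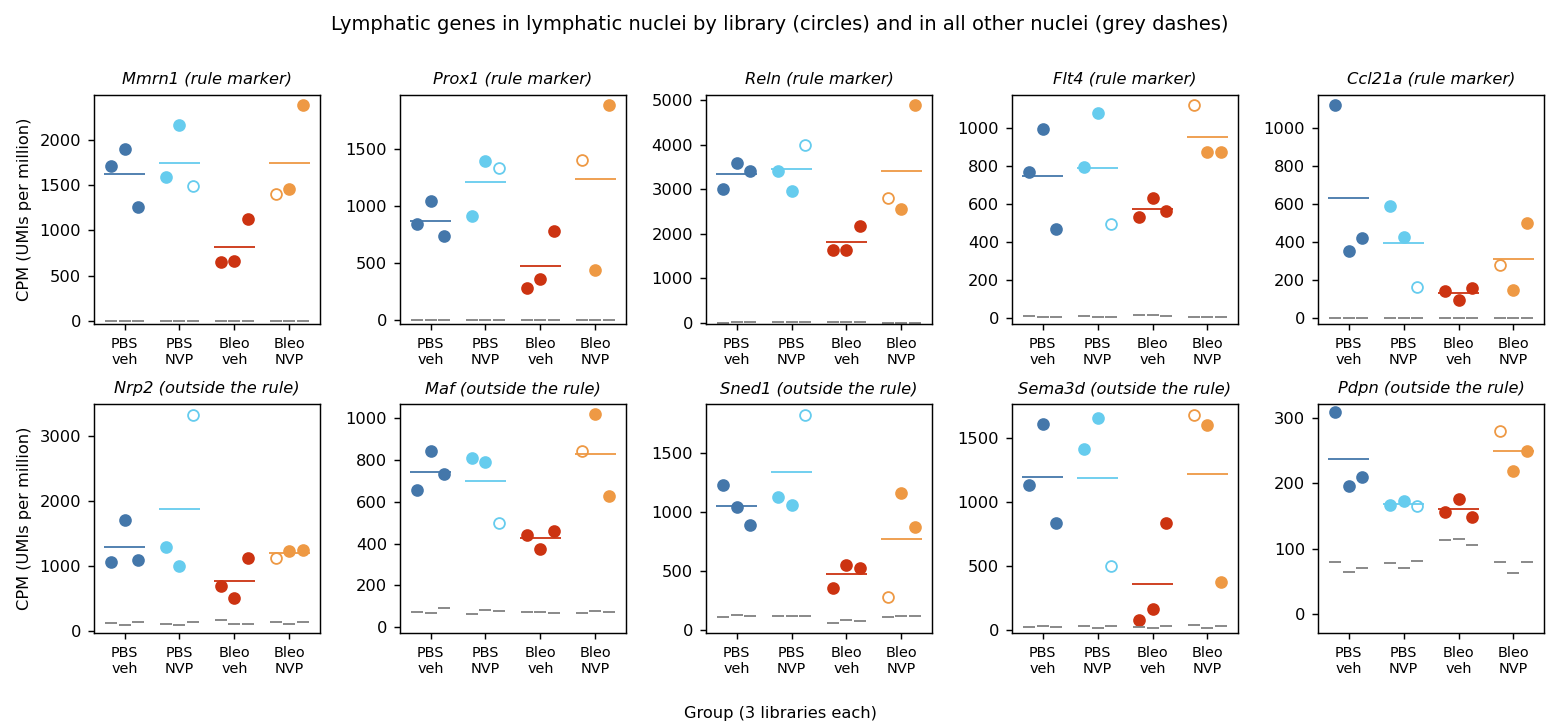
Level in CPM of the 5 rule markers (upper panels) and of 5 identity genes outside the rule (lower panels) in lymphatic nuclei, with 1 circle per library by group, horizontal lines at group means, open circles for the libraries under 5 lymphatic nuclei and grey dashes for all other nuclei of the same library. In Bleo_vehicle Mmrn1 lies at 651 to 1124 CPM and Maf at 374 to 459.6 CPM, below PBS_vehicle at 1257 to 1901 and 657 to 843 CPM.

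Genes were then tested on UMIs summed over the lymphatic nuclei of each of the 10 libraries with at least 5, by the quasi-likelihood test of edgeR with Benjamini-Hochberg adjustment over all 2261 that passed the filter on low counts. Genes with an adjusted p-value under 0.05 count as called, and log2 changes below come from this fit with their standard errors. Between Bleo_vehicle and PBS_vehicle 38 genes were called (1.68% of those tested), of which 36 were higher (1.59%) and 2 lower (0.0885%) in Bleo_vehicle. These counts include 1 rule marker, Ccl21a, among the 2 lower genes, and the other 37 are genes outside the rule. Over all tested genes the median log2 change was 0.02.

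Of the 16 identity genes 10 were tested, none was called, and all 10 had negative log2 changes, with a median of -0.51 and a range from -1.47 to -0.19. For 3 of the 10 (Maf, Sned1 and Pdpn) every Bleo_vehicle library lay below every PBS_vehicle library, against 15% of all tested genes. Sema3d, a guidance ligand of lymphatic endothelium, stood at 1132, 1607 and 838 CPM in PBS_vehicle, 1412, 1660.4 and 498 in PBS_NVP, 78.1, 164 and 838 in Bleo_vehicle, with 1684, 1602 and 376 in Bleo_NVP. Bleo_vehicle replicates 1 and 2 were the lowest of the 12 libraries and replicate 3 fell within the range of the others (log2 change -1.47 ± 0.65, edgeR adjusted p = 0.36). Maf stood at 657, 843 and 733 CPM in PBS_vehicle and at 442, 374 and 459.6 in Bleo_vehicle, and Sned1 at 1230.2, 1039 and 890.4 and at 351, 550.0 and 521, both without overlap and without a call. Nrp2 stood at 1057, 1705 and 1099.9 CPM in PBS_vehicle and 689.5, 515 and 1132 in Bleo_vehicle, with a log2 change of -0.41 ± 0.31 (edgeR adjusted p = 0.69). Pdpn and Lyve1 had log2 changes of -0.33 ± 0.40 and -0.84 ± 0.56 (edgeR adjusted p = 0.82 and 0.63), and Pkhd1l1, a large membrane protein, had -0.55 ± 0.60.

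In the Eph family the receptor that the inhibitor targets was present. Ephb4 (chromosome 5, 137350109 to 137378669, plus strand) was detected in 30.7% of lymphatic nuclei and averaged 226 CPM there, or 171 without PBS_NVP replicate 3. Its mean over the 12 libraries was 152 CPM in general capillary nuclei, 209 in venous nuclei and 30.0 in all other nuclei. In lymphatic nuclei it stood at 189, 78.4 and 314 CPM in PBS_vehicle, 145, 251 and 831 in PBS_NVP, 91.1, 117 and 90.4 in Bleo_vehicle, with 281, 72.8 and 250.4 in Bleo_NVP. The groups overlapped, with log2 changes of -0.55 ± 0.53 from PBS_vehicle to Bleo_vehicle (edgeR adjusted p = 0.77), 0.02 ± 0.87 from Bleo_vehicle to Bleo_NVP (adjusted p = 0.996) and 0.08 ± 0.57 from PBS_vehicle to PBS_NVP (adjusted p = 0.999). In Bleo_NVP these values rest on 4 UMIs in all 3 libraries, so a change of Ephb4 RNA under the inhibitor was not detectable at this depth.

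Its ligand Efnb2 averaged 188 CPM in lymphatic nuclei, or 115 without PBS_NVP replicate 3, and 509 in general capillary nuclei. It stood at 196, 0 and 105 CPM in PBS_vehicle, 128, 309 and 997 in PBS_NVP, 91.1, 140.4 and 166 in Bleo_vehicle, with 0, 0 and 125 in Bleo_NVP. Bleo_NVP held 1 UMI, so the gap between its highest library (125 CPM) and the lowest of PBS_NVP (128) is not read as a difference. The other pairs of groups overlapped. Another receptor, Ephb1, averaged 153 CPM in lymphatic nuclei and 5.69 and 6.57 in general capillary and venous nuclei, but was uneven between libraries (37.7, 509.6 and 157 CPM in PBS_vehicle and 26, 152 and 75.8 in Bleo_vehicle). Of 8 family members 3 passed the filter on low counts, none was called in any comparison, and Ephb2, Ephb3, Ephb6 and Efnb1 held 4, 5, 1 and 13 UMIs in all 342 nuclei.

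Genes of the VEGF-C pathway were split between lymphatic and blood endothelium. The ligand Vegfc held 29 UMIs in lymphatic nuclei (13.6 CPM on average, or 7.43 without Bleo_vehicle replicate 2) and averaged 728 CPM in general capillary and 1945 CPM in venous nuclei. The receptor Kdr, VEGFR2, averaged 282 CPM in lymphatic nuclei and 108 in general capillary nuclei, and stood at 257, 431 and 314 CPM in PBS_vehicle against 91.1, 129 and 225 in Bleo_vehicle. The libraries of these groups did not overlap, but Kdr was not called (log2 change -0.82 ± 0.37, edgeR adjusted p = 0.35). Of 11 pathway genes 6 were tested and none was called in any comparison, with a median log2 change of 1.05 from PBS_vehicle to Bleo_vehicle against 0.02 for all tested genes. For 3 of the 6 (Ccbe1, which helps to process VEGF-C, Nrp1 and the VEGF receptor Flt1) every Bleo_vehicle library lay above every PBS_vehicle library, against 6.15% of all tested genes. All 3 are lower in lymphatic nuclei than in the others, with Flt1 at 82.5 against 227 CPM, Nrp1 at 150.4 against 534 and Ccbe1 at 44.4 against 220.2.

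The angiopoietin and Tie pathway, which maintains lymphatic junctions, had 5 of 6 genes tested and no call. Tek, the receptor TIE2, stood at 264, 216 and 52.4 CPM in PBS_vehicle and 130.1, 246 and 181 in Bleo_vehicle (log2 change 0.16 ± 0.44), far below its mean of 1242 CPM in general capillary nuclei. Angpt2, a Tie ligand, averaged 65.7 CPM in lymphatic and 6.34 in general capillary nuclei. Of 12 genes of lymphatic valves and collecting vessels 4 were tested and none was called. Itga9, the valve integrin, averaged 924 CPM, the connexin Gja1 242 CPM and Nfatc1 249 CPM, against 384, 22.2 and 43.5 CPM in all other nuclei. Without Bleo_NVP replicate 1 Nfatc1 averaged 169 CPM in lymphatic nuclei. The valve markers Foxc2, Gja4 and Cldn11 held only 6, 2 and 1 UMIs in all, so valve cells could not be singled out at this depth.

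Other groups of genes showed few calls or none between Bleo_vehicle and PBS_vehicle. No gene was called among 10 tested junction genes (median log2 change 0.05), 8 of mechanosensing and the FOXO and KLF factors (-0.03), 8 of basement membrane and anchoring (0.16), 7 of TGF-beta and BMP signalling (0.24), 5 of S1P and leukocyte traffic (-0.14), 2 of Notch signalling, 2 of the interferon response and 2 of the clock. The 8 pan-endothelial genes had a median of 0.00 and no call. Of 5 tested genes of endothelial-mesenchymal transition all had positive log2 changes, with a median of 1.28, and 1, Fn1, rose. Of the clock outputs Nr1d1 and Dbp only 8 and 4 UMIs were counted, and no proliferation or immediate-early gene reached the filter. Chl1, a cell adhesion gene, held 26 UMIs in all, 22 of them in Bleo_vehicle replicate 1 (286 CPM).

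Mitochondrially encoded genes made up 9 of the 36 rises. Of 10 tested, 9 rose (mt-Atp6, mt-Co1, mt-Co2, mt-Co3, mt-Cytb, mt-Nd1, mt-Nd2, mt-Nd4 and mt-Nd5), and the 10 had a median log2 change of 3.50. mt-Nd2, a subunit of respiratory complex I, stood at 67.9, 39.2 and 105 CPM in PBS_vehicle and at 1106, 831 and 511 in Bleo_vehicle (log2 change 4.00 ± 0.47, edgeR adjusted p = 0.00025). In all other nuclei of the 3 Bleo_vehicle libraries it stood at 679.9, 702 and 352 CPM, against a lowest value of 28.7 over all 12 libraries.

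The other 27 rises were led, by size of change, by Spon1 and Fmo2. Spon1, a matrix protein (chromosome 7, 113765998 to 114043370, plus strand), stood at 7.55, 0 and 0 CPM in PBS_vehicle and 221, 609 and 183 in Bleo_vehicle. It rose by 6.10 ± 0.97 on the log2 scale (edgeR adjusted p = 0.0016), from 1 UMI to 144, which as a ratio per UMI is 51.1 with a 95% counting interval of 9.02 to 2031. Fmo2, a flavin monooxygenase (chromosome 1, 162874317 to 162898726, minus strand), stood at 7.55, 0 and 52.4 CPM in PBS_vehicle, 403, 702 and 528 in Bleo_vehicle, and 401, 1225 and 1022 in all other nuclei of the same Bleo_vehicle libraries. It rose by 5.85 ± 0.74 (edgeR adjusted p = 0.00031), from 2 UMIs to 307, a ratio of 54.4 (14.9 to 451). The libraries of the 2 groups did not overlap for either gene.

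Fn1, fibronectin, stood at 7.55, 19.6 and 0 CPM in PBS_vehicle and 598, 234 and 103 in Bleo_vehicle, with 593, 311 and 254 in the other nuclei (log2 change 5.17 ± 0.95, edgeR adjusted p = 0.0041, 2 against 108 UMIs). Pdgfra, the receptor that marks fibroblasts, rose from 2 to 83 UMIs (log2 change 4.44 ± 1.10, edgeR adjusted p = 0.049). The call of Pdgfra was lost in 12 of the 19 alternatives in which it was tested. The remaining named rises each went from 1 to 3 UMIs in PBS_vehicle to over 100 in Bleo_vehicle. They were the glutamate receptor subunit Gria3 (log2 change 5.48, 1 against 115 UMIs), Pid1 (5.35, 3 against 268), the guidance ligand Slit3 (5.31, 1 against 121) and the kinase Tnik (5.25, 1 against 108), with ratios per UMI of 40.8 (counting interval 7.17 to 1624), 31.7 (10.7 to 155), 42.9 (7.56 to 1708) and 38.3 (6.73 to 1526). For these 4 genes too every Bleo_vehicle library lay above every PBS_vehicle library. Without injury, PBS_NVP replicate 1 lay within the Bleo_vehicle range for Pid1 (457 CPM against 403, 807 and 411) and Slit3 (207 against 117, 316 and 208). So did PBS_NVP replicate 3, with 4 lymphatic nuclei, for Tnik (166 against 143, 222 and 191). Spon1 at 0 to 59.1 CPM and Fmo2 at 77.2 to 166 CPM in PBS_NVP lay below every Bleo_vehicle library.

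Among the 27 rises outside the mitochondrial genome 25 genes were lower on average in lymphatic nuclei than in all other nuclei, and 22 at least 2-fold lower, while 813 of the 2261 tested genes were lower. Over all 36 rises, mitochondrial genes included, the lymphatic level lay below that of the other nuclei in all 3 Bleo_vehicle libraries for 13 genes. It lay above it in all 3 for 11, which were the 9 mitochondrial genes, the noncoding RNA AY036118 and Cmss1. The like counts over all tested genes are not given here. Sftpc, the surfactant protein of alveolar type II cells, was among the rises, as was Pdgfra from the fibroblast markers. The summed alveolar type II markers in lymphatic nuclei ranged from 416 to 2293 CPM in Bleo_vehicle and from 157 to 800 in PBS_vehicle. With the 148 nuclei that carried markers of another class left out, an alternative chosen after seeing the data, 16 genes were called, 13 of them shared with the 38. None of Spon1, Fmo2, Gria3, Pid1, Slit3, Tnik, Fn1 and Pdgfra was then called. Fmo2 had a log2 change of 4.61 (edgeR adjusted p = 0.052), Fn1 of 3.88 (0.081) and Pid1 of 3.37 (0.20), all still positive, and the other 5 no longer passed the filter on low counts.

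**Figure D4:**
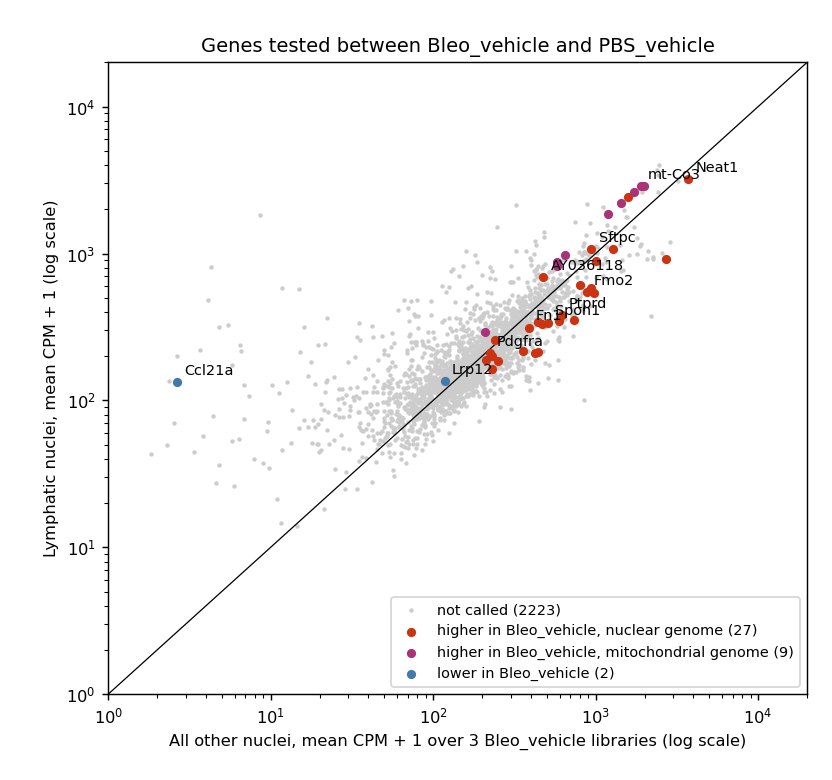
Mean level over the 3 Bleo_vehicle libraries, as CPM + 1 on log scales, in lymphatic nuclei (vertical axis) and in all other nuclei (horizontal axis) for the 2261 genes tested except Malat1 and Gm42418, which lie beyond the axes, with called genes coloured. Of the 27 nuclear genes that were higher in Bleo_vehicle most lie below the line of equal level, while the mitochondrial genes lie above it.

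Outside the rule 1 gene fell. Lrp12, a lipoprotein receptor family member (chromosome 15, 39870589 to 39943994, minus strand), stood at 377, 647 and 419 CPM in PBS_vehicle, 227, 232 and 332 in PBS_NVP, 91.1, 152 and 161 in Bleo_vehicle, with 281, 291 and 626 in Bleo_NVP. Bleo_vehicle held the 3 lowest values of the 12 libraries, and its log2 level fell by 1.52 (SE 0.37, edgeR adjusted p = 0.049). The call was lost in 21 of 25 alternatives, with log2 changes from -1.75 to -1.12. The other lower gene in the count, Ccl21a, is a rule marker, so its call is not read as a result.

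The count of calls depended on single libraries. Without Bleo_vehicle replicate 2 it was 10 and without replicate 3 it was 72, and without PBS_vehicle replicates 2 and 3 it was 17 and 18. Without both Bleo_vehicle replicates 1 and 2 it was 23, of which 18 were shared with the 38, and under the stricter rule it was 40, of which 28 were shared.

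The second comparison asked what the inhibitor did after bleomycin, and here 2 genes were called, both lower in Bleo_NVP (0.0885% of those tested). AY036118 is a noncoding RNA on chromosome 17 (39847113 to 39848035, minus strand) that overlaps Gm42418 on the opposite strand and CT010467.1 on the same strand. The part of CT010467.1 in its count was not tested. AY036118 stood at 729, 807 and 535 CPM in Bleo_vehicle and at 0 in all 3 Bleo_NVP libraries. Against a floor of 3 UMIs over the group it was at least 5.07-fold lower (0 against 344 UMIs, edgeR adjusted p = 0.025). In all other nuclei it ranged from 24.3 to 594 CPM over the libraries. In the 3 Bleo_vehicle libraries its lymphatic level was 1.23, 1.79 and 1.39 times that of the other nuclei. AY036118 was also called higher in Bleo_vehicle than in PBS_vehicle (log2 change 2.98 ± 0.45, edgeR adjusted p = 0.0018). The log2 level of mt-Nd2 fell by 3.70 (SE 0.69, edgeR adjusted p = 0.047), from 1106, 831 and 511 CPM in Bleo_vehicle to 72.8 and 125 in the Bleo_NVP libraries tested, with 2 UMIs there. The edgeR adjusted p of AY036118 was 0.069 without Bleo_vehicle replicate 1 and 0.13 without replicate 2, and that of mt-Nd2 was 0.15 and 0.13. Without the nuclei that carried markers of another class a single Bleo_NVP library held at least 5, so no p-value is given. The direction was the same in all 25 and 24 alternatives in which these genes were tested, with log2 changes of mt-Nd2 from -4.07 to -2.51. The call of AY036118 was lost in 12 of the 25 and that of mt-Nd2 in 15 of the 24. Some of these alternatives kept a single library in a group. Without Bleo_vehicle replicate 3, in contrast, 19 genes were called.

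For the other genes of this comparison only values can be given. Npas3, a transcription factor, stood at 26, 199 and 215 CPM in Bleo_vehicle and 842, 874 and 751 in Bleo_NVP, without overlap (log2 change 1.97 ± 0.56, edgeR adjusted p = 0.15). C2cd5 stood at 117, 81.9 and 90.4 CPM in Bleo_vehicle and at 509.7 and 626 in Bleo_NVP replicates 2 and 3 (log2 change 2.02 ± 0.64, edgeR adjusted p = 0.17). Nrxn3, an adhesion protein, had a log2 change of 3.30 ± 1.00 (edgeR adjusted p = 0.17). Ptprd and Cacna1d had 0 UMIs in Bleo_NVP against 234 and 153 in Bleo_vehicle, at least 3.45-fold and 2.26-fold lower against the same floor, and neither was called. The 10 identity genes had a median log2 change of 0.09 against -0.22 for all tested genes.

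Without injury no gene was called between PBS_NVP and PBS_vehicle (0% of those tested), while 56 of 2261 had an unadjusted p under 0.05, and DESeq2 called 0. The largest changes by the naming rule were Slit3 (log2 change 4.55 ± 1.19, 1 against 67 UMIs), Gria3 (3.36 ± 1.02, 1 against 24) and Fmo2 (3.33 ± 0.85, 2 against 48), all higher in PBS_NVP, and Nexmif (-2.75 ± 0.88) and Ahcyl2 (-1.76 ± 0.56), both lower. The edgeR adjusted p was 0.999 for each of these 5. Ahcyl2 stood at 211, 392 and 367 CPM in PBS_vehicle and at 88.7, 96.5 and 0 in PBS_NVP, without overlap.

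Bleo_NVP and PBS_NVP differed in no called gene (0% of those tested), with 171 genes at an unadjusted p under 0.05 and 0 calls by DESeq2. By the naming rule C2cd5 had a log2 change of 2.06 ± 0.68 (edgeR adjusted p = 0.49). Rbms2, Mat2a and Mospd2 had 0 UMIs in Bleo_NVP against 96, 93 and 94 in PBS_NVP, at least 2.23-fold, 2.16-fold and 2.19-fold lower. For the interaction, where the inhibitor's change after PBS is subtracted from its change after bleomycin, there were also 0 calls (0% of those tested), 231 genes at an unadjusted p under 0.05 and 0 calls by DESeq2. Its largest values were Cacna2d3 (3.6 ± 1.10), Npas3 (2.62 ± 0.77) and Lrp12 (2.22 ± 0.65), each with an edgeR adjusted p of 0.24, and C7, Ptprd and Gria3, for which Bleo_NVP had 0 UMIs (edgeR adjusted p = 0.24, 0.10 and 0.11). Without Bleo_vehicle replicate 3 the interaction had 13 calls and without PBS_vehicle replicate 1 it had 11.

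The last comparison asked whether lymphatic nuclei responded differently from general capillary nuclei of the same libraries, the most numerous like class (4378 nuclei, chosen by markers of their own). In general capillary nuclei 251 of 6055 tested genes were called between Bleo_vehicle and PBS_vehicle (4.15%), and 15 of the 36 lymphatic rises were called higher there too. The difference between the 2 responses, tested in 1 edgeR fit with a term for each library, was called for 32 of 2261 genes (1.42%), of which 14 had the more positive change in lymphatic nuclei and 18 the more negative. Leaving out 1 library gave 2 (without PBS_vehicle replicate 2) to 59 (without PBS_vehicle replicate 1) such genes, with 5, 6 and 7 without Bleo_vehicle replicate 2, Bleo_vehicle replicate 1 and PBS_vehicle replicate 3.

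All 18 genes with the more negative change stood above the general capillary level in PBS_vehicle, as did 1016 of all 1145 tested genes with such a change. Abca1, a cholesterol exporter (chromosome 4, 53030787 to 53159895, minus strand), stood at 558, 686 and 1781 CPM in lymphatic nuclei of PBS_vehicle and 416, 409.6 and 425 in those of Bleo_vehicle, while in general capillary nuclei it stood at 45.5, 38.0 and 77.7 and at 205, 193 and 143. In the former every Bleo_vehicle library was lower and in the latter every one was higher. Its response differed by -2.64 on the log2 scale (edgeR adjusted p = 0.0017), and in general capillary nuclei alone it rose by 1.84 ± 0.34 (edgeR adjusted p = 0.0064). Fgf13, an intracellular FGF family member, stood at 883, 647 and 1781 CPM in lymphatic nuclei of PBS_vehicle and 117, 152 and 464 in those of Bleo_vehicle, against 4.07, 0 and 4.57 and then 93.0, 31.5 and 37.2 in general capillary nuclei (difference -5.18, edgeR adjusted p = 0.0017). Dapk2, a kinase, differed by -2.95, Lrp12 by -2.72 and the ferroxidase Cp by -2.48.

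All 14 genes with the more positive change stood below the general capillary level in PBS_vehicle, as did 776 of all 1116 tested genes with such a change. Ptprd, a receptor phosphatase, stood at 37.7, 0 and 0 CPM in lymphatic nuclei of PBS_vehicle and 299, 409.6 and 430.2 in those of Bleo_vehicle, against 339, 177 and 210 and then 55.8, 333 and 354 in general capillary nuclei (difference 4.26, edgeR adjusted p = 0.014). Slit3 (5.06), Fmo2 (4.96), Spon1 (4.71), Tnik (4.34) and Pid1 (4.34) were of the same kind. For all 32 genes the levels of the 2 types lay closer together in Bleo_vehicle than in PBS_vehicle, against 71.3% of all 2261 tested genes. The part that RNA of other cells, measured above as marker shares, has in this was not tested.

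Between Bleo_NVP and Bleo_vehicle the responses differed in no called gene (0% of those tested) although 317 genes had an unadjusted p under 0.05, and DESeq2 called 10. General capillary nuclei alone had 515 calls (8.51% of 6055).

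**Figure D5:**
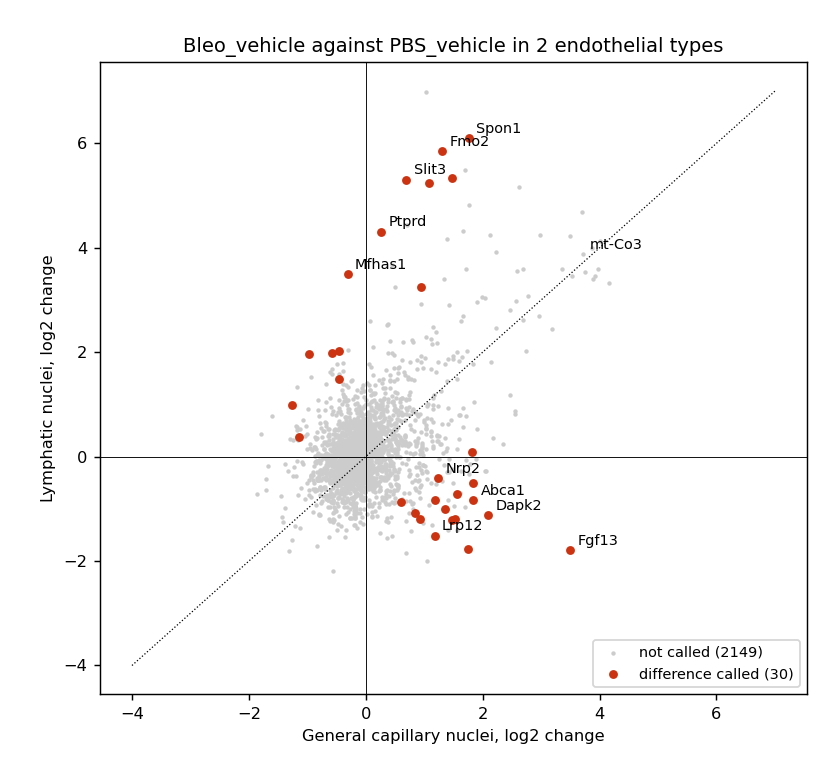
Log2 change from PBS_vehicle to Bleo_vehicle in general capillary nuclei (horizontal axis) and in lymphatic nuclei (vertical axis) for the genes tested in both, with genes whose responses differed in colour and a dotted line at equal change. Of the 32 such genes 30 were also tested in general capillary nuclei alone and are drawn, with Spon1 and Fmo2 far above the line and Fgf13, Dapk2 and Abca1 below it.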

How the data were processed

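The authors deposited, per library, a matrix of whole-number UMI counts per gene and nucleus barcode, made by 10x Genomics 3' single-nucleus RNA sequencing and Cell Ranger (7.0 per the labels, 7.2.0 per the file headers) on mm10. The study's later filtering, with Seurat 4.4.1 named among its tools, was not part of these files. Here 47319 of 49163 barcodes passed the filters of the rule. Doublets were not removed but scored with scrublet in scanpy 1.11.5, and 18 lymphatic nuclei were among the highest scores. The members and gene lists were chosen with earlier results of these data known.

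Counts were summed per library over lymphatic nuclei and fitted for 10 libraries with edgeR 4.0.16 (filterByExpr, TMM, robust quasi-likelihood, two-sided, Benjamini-Hochberg adjusted, biological coefficient of variation 0.309), without a replicate block. CPM are UMIs per 1000000 summed UMIs, without TMM. Genes named were called, averaged at least 50 CPM, did not overlap between groups, were outside the rule's lists and had no Gm or Rik symbol, up to 8 rises and 8 falls. Where fewer than 3 genes were called, the 3 largest of each direction at an unadjusted p under 0.01 were given as values. Named whatever their values were the 5 markers, Ephb4, Efnb2, Lyve1, Pdpn, Nrp2, Kdr, Vegfc, Tek, Sema3d, Pkhd1l1, Nr1d1, Dbp and Chl1, and the 15 genes with the largest ratio to other nuclei among those in at least 20% of lymphatic nuclei, of which 1 is not reported here. Shares were compared with exact permutation tests. P-values measure the spread between these mice. Gene positions are from GENCODE M21. Alternatives were run with DESeq2 1.42.0 and other settings. The fit was tested on simulated data.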

Additional observations from a re-analysis of the deposited data

Results flagged for a closer look

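Bleo_vehicle replicate 1 stood far from the other libraries in its share of lymphatic nuclei. It held 5.81% among endothelial nuclei, beyond Dixon's limit both among the 6 bleomycin and among the 6 vehicle libraries, and 1.23% among passing nuclei, beyond the limit among the 6 vehicle libraries. In this library 15 of the 28 lymphatic nuclei had under 5 marker UMIs. Of 8 such sets of libraries examined 3 went past the limit, and chance takes about 1 in 20 past it. All 3 were past it through this same library and its 28 lymphatic nuclei, so they do not count as separate observations.

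The change from PBS_vehicle to Bleo_vehicle differed between lymphatic and general capillary nuclei for 32 genes. By the naming rule the more positive lymphatic changes were Slit3 (5.06 on the log2 scale, lymphatic minus general capillary), Fmo2 (4.96), Spon1 (4.71), Tnik (4.34), Pid1 (4.34), Ptprd (4.26), Mfhas1 (3.45) and Aldh1a1 (2.68). The more negative were Fgf13 (-5.18), Sorbs2 (-3.12), Prkcz (-2.98), Dapk2 (-2.95), Ptpn3 (-2.77), Lrp12 (-2.72), Abca1 (-2.64) and Cp (-2.48). All 14 genes with the more positive change were below the general capillary level in PBS_vehicle and all 18 with the more negative change above it. Over all tested genes the same held for 776 of 1116 with the more positive and 1016 of 1145 with the more negative change.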

How the results depend on the processing

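The count of genes called between Bleo_vehicle and PBS_vehicle, 38, was 119 with no filter on low counts, 25 with only the 2 groups, 24 with at least 10 nuclei per library, 19 without mitochondrial genes, 10 without genes below other nuclei, 16 without nuclei carrying markers of another class, 23 without Bleo_vehicle replicates 1 and 2, and 10 (without Bleo_vehicle replicate 2) to 72 (without replicate 3) with 1 library left out. Leaving out mitochondrial genes, genes below other nuclei, nuclei with other markers or both Bleo_vehicle replicates, and using all 12 libraries, were chosen after seeing the data. The 2 calls between Bleo_NVP and Bleo_vehicle became 7 with DESeq2 (none shared), 40 with no filter and 25 with all 12 libraries. They became 5 without genes below other nuclei, 1 with the legacy fit or without mitochondrial genes and 0 with no TMM factors, only the 2 groups or the stricter rule. With 1 library left out there were 0 to 19. At least 10 nuclei, stricter quality limits or leaving out nuclei with other markers kept a single Bleo_NVP library. Leaving out Bleo_vehicle replicates 1 and 2 kept a single Bleo_vehicle library. No count is given for these settings in this comparison. PBS_NVP against PBS_vehicle had 10 calls with no filter and 0 to 1 with 1 library left out, Bleo_NVP against PBS_NVP 1 and 0, and the interaction 43 and 0 to 13, with 3 under the stricter rule, 1 without genes below other nuclei and 2 with all 12 libraries. The 32 genes that differed from general capillary nuclei became 116 with no filter, 16 with only the 2 groups, 10 with at least 10 nuclei, 17 under the stricter rule or without doublets, 15 under stricter quality limits and 2 to 59 with 1 library left out, and for Bleo_NVP against Bleo_vehicle 0 became 10 with DESeq2, 58 with no filter and 0 to 4. The causes were not tested.

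After centring on group means, same-numbered libraries of different groups correlated at -0.05 to 0.26 and differently numbered ones at -0.26 to 0.14. Centring forces mirrored values in the smallest groups, so these correlations cannot decide whether replicate numbers pair the samples. With the replicate block 45 genes were called between Bleo_vehicle and PBS_vehicle, 33 of them shared, and 1 between Bleo_NVP and Bleo_vehicle. Without TMM factors the median log2 change of all genes moved from 0.02 to -0.25 and from -0.22 to 0.18 in these comparisons.

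The share difference between Bleo_vehicle and PBS_vehicle turned to -0.0320 points under the stricter rule and -0.0554 under stricter quality limits (0.0170 to 0.340 with 1 library left out), and that of bleomycin against PBS to 0.110 among endothelial nuclei, or -0.342 there under the stricter rule. Leaving out 1 library gave -0.0235 to 0.385 for PBS_NVP against PBS_vehicle, -0.236 to -0.0235 for bleomycin against PBS, -0.297 to -0.0988 for NVP against vehicle, -0.689 to -0.281 for Bleo_NVP against PBS_NVP and -0.644 to -0.321 for Bleo_NVP against Bleo_vehicle. Among endothelial nuclei the ranges, in the same order from Bleo_vehicle against PBS_vehicle, were -0.0924 to 1.90, -0.339 to 1.01, -0.608 to 0.396, -1.17 to -0.164, -1.71 to -0.363 and -2.60 to -0.609 points.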
